A study of Mus musculus with 8 samples.

Results

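The subject is a set of 101 nuclei picked out of mouse alveolarsphere cultures by high summed RNA of 6 genes, Mgarp, Bst1, Loxl2, Serpinb9b, Slc16a3 and Ndrg1. RNA was counted as unique molecular identifiers (UMIs, 1 per captured RNA molecule). Of 7224 nuclei in all, 6757 were eligible because they had at least 1000 UMIs, under 50 UMIs per 10000 of the airway secretory genes Scgb3a1 and Bpifa1, and under 5 Sox9 UMIs. The members are the top 1.5% of the eligible nuclei by the sum of the 6 genes in UMIs per 10000, and the remaining 6656 eligible nuclei are called the other nuclei. The members were chosen by the RNA of the 6 genes, so it is given only as a description, and every other RNA value comes from the same nuclei and is a description as well.

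The cultures were spheres grown without serum or feeder cells from type II pneumocytes (ATII cells, the surfactant-making stem cells of the alveolus) of young and old mice. On day 9 they received an AAV9 virus with either Cre alone (Cre, the control) or Sox9 and Cre (Sox9Cre, Sox9 overexpression). ATI differentiation medium, meant to turn ATII cells into the flat type I (ATI) cells of gas exchange, followed for 4 days. Nuclei of tdTomato-positive cells, tdTomato being a red fluorescent reporter, were sorted and profiled for RNA and open chromatin (ATAC) at once, with 2 labelled replicates of each kind per group. All groups thus share the reporter, Cre, the virus and the differentiation medium, and which mice were young or old is not given in the labels. Nuclei carry 4 barcode prefixes, called libraries A to D here, that no label ties to Sox9Cre or Cre. The members are therefore compared with the other nuclei of their own library, the pooled data count as 1 sample, and no test between groups was made.

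Several of the genes that chose and describe these nuclei belong to the cellular response to low oxygen. In that response, prolyl hydroxylases (the Egln enzymes) mark the alpha subunit of hypoxia-inducible factor (HIF) for destruction when oxygen is present. When oxygen is scarce the factor pairs with Arnt and binds short DNA motifs at glucose transporter, glycolysis and mitophagy genes. In the alveolus, HIF is known for roles in surfactant-producing cells and in the repair of the epithelium after injury.

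Promoters of 5 genes that were high in the members, and of the rule gene Slc16a3, are shown here because the letters ACGTG form the core of the HIF motif and the chosen genes carry it in different numbers. Sequences are from RefSeq (GRCm38.p6), from 250 bases before to 50 after the start of transcription, 5′ to 3′ on the strand of the gene. Capitals mark ACGTG and the related GCGTG on either strand, so the other strand's motifs read CACGT and CACGC, and a CACGTG holds ACGTG once on each strand.
Pgk1: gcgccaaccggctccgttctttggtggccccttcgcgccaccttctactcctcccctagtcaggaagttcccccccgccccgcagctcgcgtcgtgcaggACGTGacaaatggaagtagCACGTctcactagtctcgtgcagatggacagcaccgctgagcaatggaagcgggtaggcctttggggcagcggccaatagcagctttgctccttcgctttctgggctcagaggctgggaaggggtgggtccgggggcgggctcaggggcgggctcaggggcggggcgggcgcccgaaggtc
Ldha: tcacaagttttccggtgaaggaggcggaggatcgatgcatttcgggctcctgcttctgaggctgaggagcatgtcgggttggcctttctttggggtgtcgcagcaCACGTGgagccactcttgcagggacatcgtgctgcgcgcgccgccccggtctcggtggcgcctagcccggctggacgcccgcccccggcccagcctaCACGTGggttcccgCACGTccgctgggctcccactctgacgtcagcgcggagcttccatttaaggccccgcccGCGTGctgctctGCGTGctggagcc
Bnip3: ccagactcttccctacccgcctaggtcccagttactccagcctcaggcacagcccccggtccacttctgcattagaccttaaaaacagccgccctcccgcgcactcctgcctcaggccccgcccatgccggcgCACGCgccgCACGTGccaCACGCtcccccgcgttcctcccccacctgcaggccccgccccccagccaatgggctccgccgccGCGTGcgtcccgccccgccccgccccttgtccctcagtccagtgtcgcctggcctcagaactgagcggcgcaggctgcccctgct
Slc2a1: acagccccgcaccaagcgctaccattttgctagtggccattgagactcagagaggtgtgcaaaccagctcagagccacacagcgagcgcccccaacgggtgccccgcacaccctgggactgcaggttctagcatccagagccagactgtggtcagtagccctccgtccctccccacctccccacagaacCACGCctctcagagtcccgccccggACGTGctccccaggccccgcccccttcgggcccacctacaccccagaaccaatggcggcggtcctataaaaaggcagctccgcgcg
Egln3: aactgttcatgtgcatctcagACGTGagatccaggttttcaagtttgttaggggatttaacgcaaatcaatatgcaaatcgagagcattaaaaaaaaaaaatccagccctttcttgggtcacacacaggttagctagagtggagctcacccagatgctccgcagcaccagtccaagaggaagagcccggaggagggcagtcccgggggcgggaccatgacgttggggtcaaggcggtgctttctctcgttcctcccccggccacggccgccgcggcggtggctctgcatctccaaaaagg
Slc16a3: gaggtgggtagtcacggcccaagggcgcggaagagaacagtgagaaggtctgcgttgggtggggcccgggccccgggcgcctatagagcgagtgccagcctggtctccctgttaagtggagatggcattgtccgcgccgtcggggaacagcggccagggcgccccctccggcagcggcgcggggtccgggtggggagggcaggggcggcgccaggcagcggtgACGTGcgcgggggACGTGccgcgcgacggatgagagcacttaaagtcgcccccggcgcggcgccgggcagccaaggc
The Pgk1 promoter (chrX:106186850-106187149, plus strand) holds ACGTG 2 times and no GCGTG. The Ldha promoter (chr7:46845554-46845853, plus strand) holds ACGTG 5 times, counting each CACGTG once per strand, and GCGTG 2 times. Ldha has a second RefSeq promoter with no ACGTG. The Bnip3 promoter (chr7:138909457-138909756, minus strand) holds ACGTG 2 times and GCGTG 3 times. Slc2a1 (chr4:119108495-119108794, plus strand) has 1 of each motif, Egln3 (chr12:54203825-54204124, minus strand) has 1 ACGTG, and Slc16a3 (chr11:120948817-120949116, plus strand) has 2 ACGTG near the start.

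The members were spread unevenly over the libraries. Library A gave 7 of its 1252 eligible nuclei (0.559%, 95% Clopper-Pearson interval 0.225 to 1.15), library B 9 of 760 (1.18%, 0.543 to 2.24), library C 69 of 2981 (2.31%, 1.81 to 2.92) and library D 16 of 1764 (0.907%, 0.519 to 1.47). All intervals here are exact, cover counting error only and take no account of variation between cultures. The interval of library C lay above those of A and D and overlapped that of B, and values for A and B rest on few nuclei. Members and other nuclei had like depth, with a median of 10584 against 10958 UMIs, 3652 against 3770 genes, 6.40% against 5.73% mitochondrial counts and 9008 against 9001 ATAC counts. The 7 members of library A were shallower, at a median of 4832 UMIs against 9880 in the other nuclei of that library. Of the barcode sequences, 20 occurred in more than 1 library, none of them in a member. A doublet caller marked 12 nuclei (0.166%), which was taken as not having worked, and no nucleus was removed.

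Among the 6 genes of the rule, Ndrg1, a stress-induced gene of the hypoxia response, led the sum in 42 members and Serpinb9b, a serine protease inhibitor, in 29. Slc16a3, the lactate exporter MCT4, led in 17, Bst1, a cell-surface enzyme of NAD metabolism, in 10 and Loxl2, which cross-links collagen, in 3. Mgarp, a mitochondrial protein, led in none, so the genes that lend the set its working name are not the ones that carry most of its sum. The members held 346 Ndrg1, 322 Serpinb9b, 203 Slc16a3, 126 Bst1, 59 Loxl2 and 41 Mgarp UMIs. A single rule gene gave the whole sum in 29 members, 29 had UMIs of 2 genes and 43 of 3 or more, and 4 members rested on 1 UMI. The lowest members had sums of 4.70, 4.72 and 4.73 per 10000 and the highest nuclei outside had 4.69, 4.68 and 4.64, so the limit falls on a continuous range. The median sum was 7.57, the highest 35.7, and 86.3% of the other nuclei had no UMI of these genes. Serpinb9b belongs to a multigene family with near-identical copies, among which reads may be divided. Its relatives Serpinb9c to Serpinb9g had 0 UMIs in the members.

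In a map of nuclei by overall RNA that left out the rule genes, on average 21.6% of the 15 nearest neighbours of a member within its library were members. That share was 30.8% in library C, 2.96% in B, 1.67% in D and 0% in A. Members with 5 or more member neighbours numbered 28, all of them in library C, and 31 had none, 13 of these in library D. Members were 2.31% of the eligible nuclei in library C, 1.18% in B, 0.907% in D and 0.559% in A. They thus stood partly together in library C. In B and D the neighbour share was low but also above the share of eligible nuclei, and few members were there to be neighbours.

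Across all genes, 10917 had at least 5 UMIs expected in the members from the level over all eligible nuclei, and these are the genes called tested below. A fold is the UMIs counted in the members over those expected if they had the level of the other nuclei of the same library. A gene is called higher where its fold was at least 2 and lower where it was at most 0.5. By that limit 495 genes (4.53%) were higher and 908 (8.32%) were lower, and the median log2 fold of all tested genes was -0.03. Of the higher genes, 408 were above 1 in both C and D and 201 in all 4 libraries. Each library entered the fold that chose these genes, and C gave 821971 of the members' 1152941 UMIs. With the other nuclei weighted to the members' mix of type II, type I and transitional nuclei, 247 were higher and 545 lower. These counts, of the same 10917 genes, are the ones to set beside each count below that is weighted by programme.

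The enzymes of glycolysis were high as a block. Of 16 enzymes listed, 15 were tested, and 14 of them were higher with none lower, against the 4.53% of all genes, with a median log2 fold of 1.90. Summed over the list, the members had 110 UMIs per 10000 and the other nuclei 26.9, a fold of 4.11 (4.04 to 4.19). By library the summed fold was 2.04, 2.42, 4.77 and 2.90 (A to D), so it lay above 2 in each. Only the muscle isoform of phosphofructokinase, Pfkm, was not higher (fold 0.865), and the neuronal enolase Eno2, with 1 UMI, was below the filter. Without library C, 12 of the 13 enzymes then tested were higher, against 377 of all 7979 genes then tested.

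Pgk1, phosphoglycerate kinase, which makes the first ATP of the pathway, stood at 8.41 UMIs per 10000 in the members and 1.30 in the others. Its level in members and others was 3.48 and 1.23 in library A, 7.58 and 1.28 in B, 9.23 and 1.27 in C, and 6.30 and 1.42 in D. The members were above the others in each library, and the fold was 6.49 (6.09 to 6.92). Gapdh, the enzyme before it, stood at 26.6 and 5.08 per 10000, a fold of 5.24. The members of libraries A to D had 9.69, 11.4, 32.2 and 14.0 Gapdh UMIs per 10000 and the others 5.04, 5.55, 4.90 and 5.57. Gapdh was thus highest in library C, and without that library its fold was 2.30. Pfkp, the platelet form of phosphofructokinase, had a fold of 6.06 (5.28 to 6.92), and the libraries lay close together at 5.32, 4.38, 6.56 and 4.92. Hk2, the inducible hexokinase, was likewise even, at 3.66, 3.94, 3.33 and 2.67 in libraries A to D and 3.32 overall. Ldha, the lactate dehydrogenase subunit that turns pyruvate to lactate, stood at 11.7 against 3.13 per 10000 (fold 3.72) with library folds of 1.78, 1.79, 4.25 and 2.99. Tpi1 (4.79, 2.90 without library C), Pgam1 (4.77), Pfkl (4.47), Eno1 (3.68), Aldoa (3.62), Gpi1 (3.10), Pkm (3.09) and Hk1 (2.32) were also higher. The aldolase Aldoc had a fold of 5.18, but it had no UMI in members of A and B and fell to 0.660 without library C. Gapdh, Ldha and Pgk1 have near-identical copies elsewhere in the genome, so their counts are uncertain where reads were divided among copies.

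**Figure D1:**
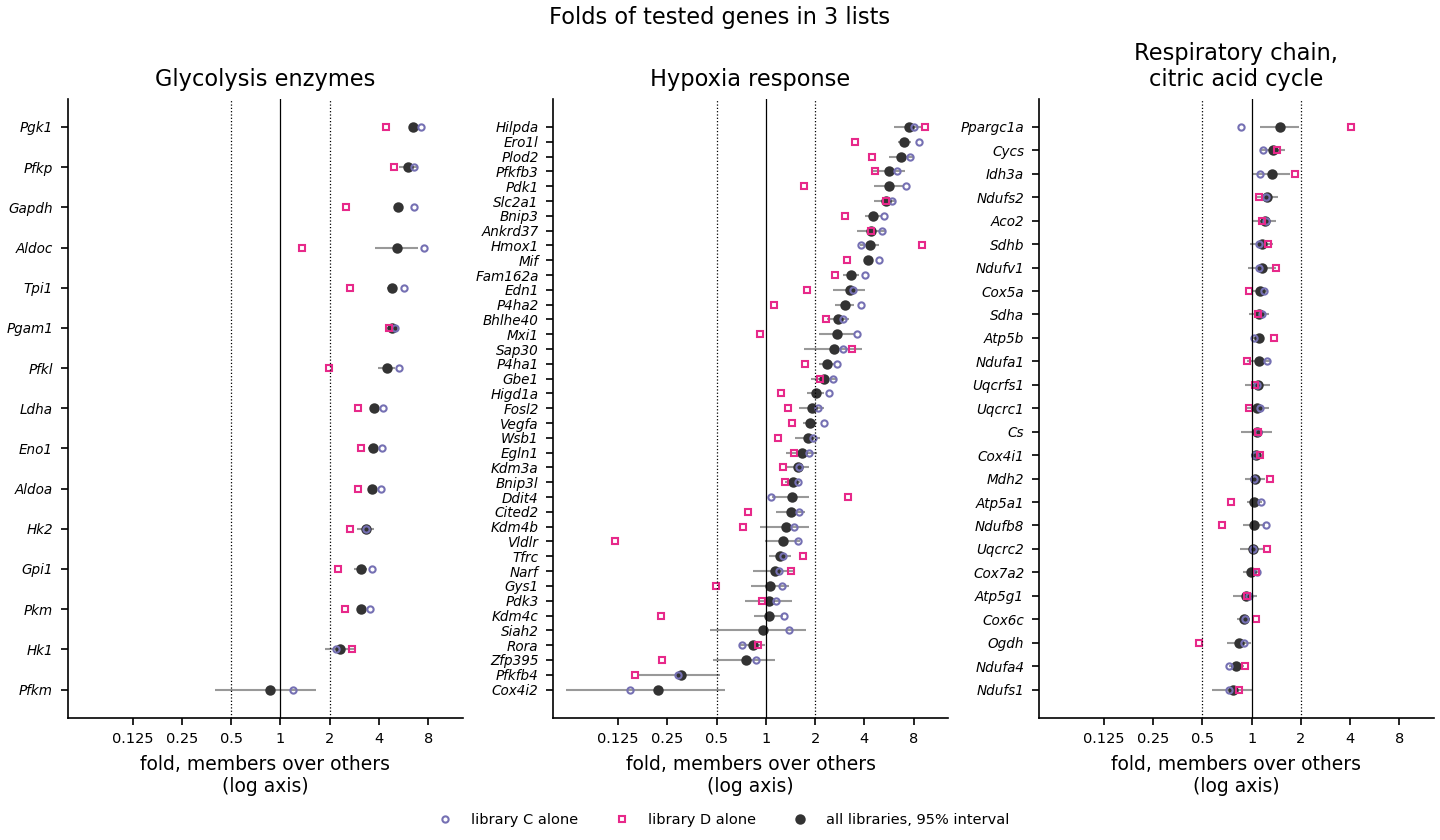
Fold of each tested gene in members over other nuclei of the same library (log axis), for all libraries together with exact 95% intervals (filled points) and for libraries C and D alone (open points). Of the tested hypoxia genes 1 is not drawn, genes with no UMI in a library have no point for it, dotted lines mark 0.5 and 2, and all libraries together put 14 of 15 glycolysis genes above 2 and all 25 respiratory genes between the dotted lines.

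Genes of the hypoxia response outside glycolysis were high in a smaller share. Of 54 listed genes in the matrix, 40 were tested, 20 were higher and 2 lower, against 4.53% and 8.32% of all genes. Their median log2 fold was 0.97. The list summed to 60.5 per 10000 in members and 24.4 in others, a fold of 2.47 (2.42 to 2.53). Libraries A to D had summed folds of 1.12, 1.40, 2.80 and 1.99, so the members of A and B were near the other nuclei. Without library C, 10 of the 33 genes then tested were higher, as against 20 of 40 with it. Of all 7979 genes tested without library C, 377 were higher.

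In glucose entry and its control, Slc2a1, the glucose transporter GLUT1, stood at 1.46 per 10000 in members and 0.270 in others, a fold of 5.39. The levels in members of libraries A to D were 0.745, 0.740, 1.56 and 1.59, against 0.278, 0.289, 0.263 and 0.292 in the others, and the members were above the others in each. Pfkfb3, which makes the activator of phosphofructokinase, had a fold of 5.68 with 3.42, 4.19, 6.29 and 4.65 by library. Pdk1, the kinase that keeps pyruvate out of the citric acid cycle, had a fold of 5.64, which rested on library C (7.19) and came to 1.71 without it. Lower genes of the list were Pfkfb4, a relative of Pfkfb3 (0.304), and the cytochrome oxidase subunit Cox4i2 (0.220).

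Among genes of protein folding, lipid storage and mitochondria, Ero1l, the oxidase that forms disulfide bonds in the endoplasmic reticulum, stood at 3.89 against 0.554 per 10000. Its fold was 7.04, with 1.41, 3.62, 8.59 and 3.50 in libraries A to D and 3.30 without library C. Hilpda, which blocks lipid droplet breakdown, had a fold of 7.48, with no UMI in the members of A and 3.16, 7.99 and 9.34 in B, C and D. Bnip3, a receptor for mitophagy whose promoter is printed above, had a fold of 4.52, with 1.17, 2.60, 5.29 and 3.03. Ankrd37 (4.41), Fam162a (3.32), Higd1a (2.01), Mxi1 (2.71), Bhlhe40 (2.77), Sap30 (2.63) and Gbe1 (2.27) were higher too. Mif, a secreted cytokine, was abundant, at 11.1 against 2.64 per 10000, a fold of 4.19, and at 2.67 without library C.

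Collagen-modifying enzymes of the list were higher: the lysyl hydroxylase Plod2 at 6.71 and the prolyl hydroxylase subunits P4ha2 at 3.03 and P4ha1 at 2.37. Without library C these came to 3.74, 1.15 and 1.44. In a wider list of collagen modification, 11 genes were tested, 3 were higher and 2 lower, against 4.53% and 8.32% of all genes. The higher ones were the same 3, and the lower ones were the procollagen protease Bmp1 (0.164) and P3h2 (0.429). Of secreted signals, the vasoconstrictor Edn1 (3.25) was higher. Vegfa, the angiogenic growth factor, did not reach the limit, at 3.17 against 1.70 per 10000, a fold of 1.87 with 0.733, 0.512, 2.25 and 1.45 by library. The heme oxygenase Hmox1 had a fold of 4.31, and 73.1% of its UMIs in members came from 5 nuclei.

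A few further genes were rare in the other nuclei, fell below the filter and are named after their values were seen. Egln3, the prolyl hydroxylase that HIF itself induces, had 56 UMIs in 23 members, 55 of them in library C and 1 in D, a fold of 68.5 (51.8 to 89.0). The kinase Ak4 had 54 UMIs (3 in B, 41 in C, 10 in D), a fold of 23.1. Adm, the peptide adrenomedullin, had 28 (27 in C, 1 in D), a fold of 23.4, and Hif3a had 16 (4 in A, 12 in C), a fold of 21.6. In library A the members had no UMI of Egln3, Ak4 or Adm, and in B none of Egln3 or Adm.

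The tested genes of the oxygen-sensing machinery were not higher. Of 18 listed genes 14 were tested, and Egln3 (68.5) and Hif3a (21.6), below the filter as said above, are not among the 14. Of these 14, 0 reached the 2-fold limit and 2 were lower, against 4.53% and 8.32% of all genes. Over the whole list the summed fold was 1.06 (1.01 to 1.11). The median log2 fold was -0.21. Hif1a stood at 1.26 per 10000 in members and 1.66 in others, a fold of 0.759 (0.640 to 0.893), and its partner Arnt had 0.598. The lower genes were Hif1an, an asparagine hydroxylase that restrains HIF (0.483), and Epas1, which encodes another HIF alpha subunit (0.494). Without library C these were at 0.215 and 0.759. With others weighted by marker programme, Epas1 turned to 1.16, and 1 of the 14 was higher and 0 lower. Egln1, the main oxygen sensor, had a fold of 1.67. The RNA of these genes does not report the amount of HIF protein, which was not measured.

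The respiratory chain and citric acid cycle stayed near the other nuclei. None of 25 tested genes was higher or lower, against 4.53% and 8.32% of all genes. The median log2 fold was 0.11, and the list summed to 48.7 against 46.9 per 10000, a fold of 1.04 (1.01 to 1.07). The folds ran from 0.769 for Ndufs1, a subunit of complex I, to 1.49 for Ppargc1a, a regulator of mitochondrial gene expression. Summed over the list, libraries A to D were at 1.01, 0.968, 1.04 and 1.08. In the plot of 3 gene lists, glycolysis lies to the right and the respiratory genes stand around 1.

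Transport of lactate and acid was high in library C above all. Of 8 tested genes 3 were higher and 1 was lower, against 4.53% and 8.32% of all genes, and the median log2 fold was -0.18. Bsg, the chaperone that carries lactate transporters to the cell surface, stood at 37.9 per 10000 in members and 7.38 in others, a fold of 5.13. The Bsg level in members of libraries A to D was 6.71, 4.81, 49.3 and 12.9, against 7.80, 8.47, 7.14 and 7.73 in the others. Bsg was below the other nuclei in A and B, and its fold was 1.19 without library C. The bicarbonate transporter Slc4a4 (2.95) and the lactate transporter Slc16a1 (2.61) were higher, at 1.87 and 1.73 without library C, and Slc16a7, another lactate transporter, was lower (0.498). Among 12 tested relatives of the rule genes, Slc16a1 and Slc16a7 were the 2 past a limit, and weighted by programme 2 were higher and 0 lower.

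The levels varied widely from nucleus to nucleus. Summed glycolysis RNA in single members ran from 0 to 336 per 10000, with a median of 91.8 against 21.5 in the others. Of the 101 members, 65 were above 58.6, the level that 95% of the other nuclei stay under. By library, 3 of 7 members in A, 2 of 9 in B, 54 of 69 in C and 8 of 16 in D exceeded the same mark of their own library. For the hypoxia list the median was 55.8 (6.94 to 188) against 23.4, and 61 members were above the 95% mark of 39.7. Here 1 of 7 in A, 1 of 9 in B, 53 of 69 in C and 7 of 16 in D passed their library's mark. Most members of A and B thus lay below the mark of their library in both sums, and most members of C lay above it.

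**Figure D2:**
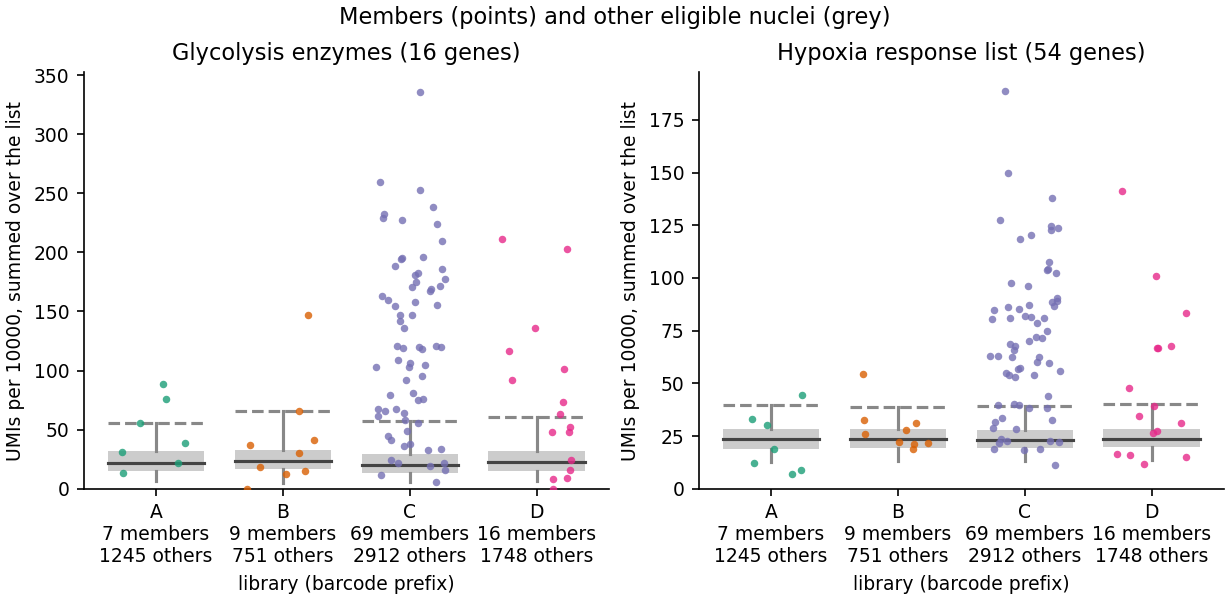
Summed UMIs per 10000 of the glycolysis list (left) and the hypoxia list (right) in each member (points) by library, beside the other nuclei of that library (grey: box from the first to the last quartile, line at the median, dashed line at the level that 95% stay under). In library C 54 of 69 members lie above the dashed line for glycolysis, and in A and B most lie below it.

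The number of rule genes in a nucleus went with these sums. The groups below are split by the values that chose the nuclei, so their steps are a description and no support for the set. Glycolysis had a fold of 1.64 in the 29 members with 1 rule gene, 2.97 in the 29 with 2 and 5.87 in the 43 with 3 or more. The hypoxia list went from 1.35 to 1.89 and 3.29, and lactate and acid transport, most of whose UMIs are Bsg, from 1.01 to 1.46 and 6.04. Respiratory genes were at 0.968, 1.01 and 1.08. By the gene that led the sum, glycolysis was at 3.73 with Ndrg1 leading, 5.98 with Slc16a3, 3.70 with Serpinb9b and 4.16 in the 13 led by Bst1, Loxl2 or Mgarp. Depth and library moved with these steps: the median was 9922, 9238 and 12101 UMIs in the 3 groups, and library C gave 12, 18 and 39 of their nuclei. Within library C alone the median glycolysis sum per nucleus was 37.4, 77.2 and 168 per 10000 and the median hypoxia sum 23.2, 49.0 and 85.3. In library D the glycolysis medians were 20.2 in 8 nuclei, 91.8 in 5 and 117 in 3. Members with a single rule gene, at a median of 33.02 for glycolysis and 25.9 for the hypoxia list over all libraries, stood against 21.5 and 23.4 in the other nuclei. The part of depth was not tested.

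**Figure D3:**
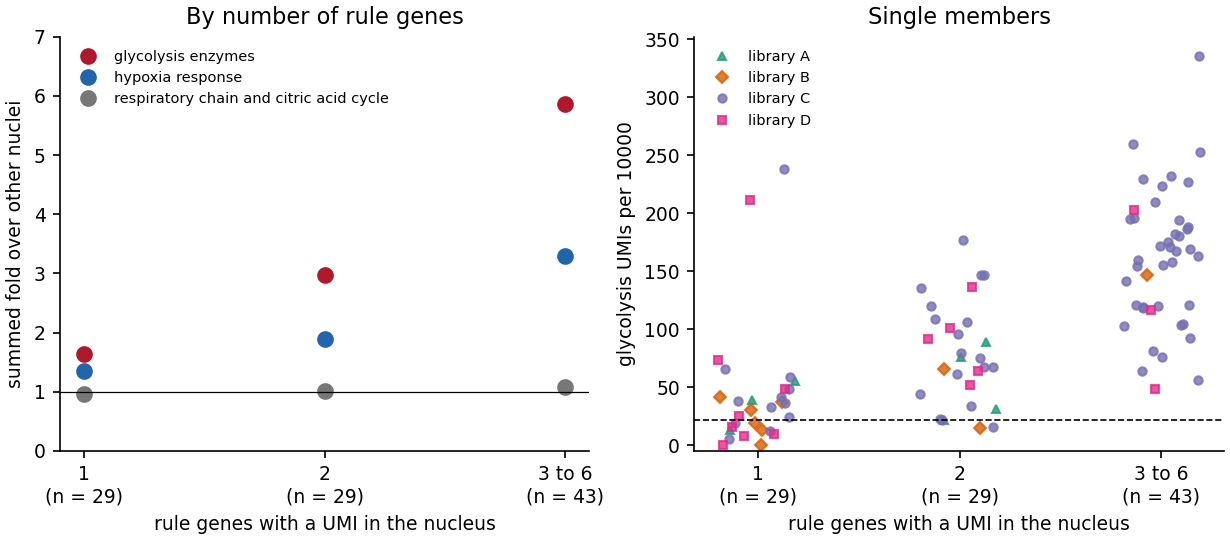
Left, summed fold over other nuclei of 3 gene lists in members with UMIs of 1, 2 or 3 to 6 rule genes (n is the number of nuclei). Right, summed glycolysis UMIs per 10000 in each member (points, shape and colour by library) by the same groups, with the dashed line at 21.5, the median of the other nuclei, and within library C medians of 37.4, 77.2 and 168.

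The 28 members of library C that stood together differed in degree from the other 41 of that library. The 28 were picked as neighbours by the same RNA, without the rule genes, so differences in that RNA are in part built in. Their glycolysis fold was 6.56 against 3.36, their hypoxia fold 3.67 against 2.11, and Bsg was at 13.1 against 2.06. They also held 43 of the 55 Egln3 and 22 of the 27 Adm UMIs of library C. Fn1, fibronectin, was at 23.9 against 4.47 and Msln, a surface glycoprotein best known from mesothelium, at 33.4 against 8.48. The respiratory genes were at 1.04 in both. The 28 were deeper, at a median of 12017 against 9238 UMIs, and had higher rule sums, 13.4 against 8.24 per 10000.

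Markers placed most members with the transitional cells that lie between type II and type I. Each nucleus was assigned to the programme (type II, type I or transitional) whose markers were highest relative to all eligible nuclei. Transitional markers led in 80 members (79.2%) and 29.99% of the others, type I markers in 20 (19.8% against 30.7%) and type II markers in 1 (0.990% against 39.3%). Of 23 tested transitional markers, 13 were higher and none lower, against 4.53% and 8.32% of all genes. The list summed to 249 against 131 per 10000, a fold of 1.89 (1.87 to 1.91). By library the sum was 2.22, 2.42, 1.71 and 2.22-fold. Lgals3, galectin-3, stood at 27.6 against 6.01 per 10000, a fold of 4.59, with 3.30, 10.7, 3.02 and 6.49 in libraries A to D and 7.46 without C. Fn1 had a fold of 9.13 (2.68 without library C), the urokinase receptor Plaur 6.36, the prostaglandin synthase Ptgs2 6.16, the matrix protein Ccn2 4.56 and the tropomyosin Tpm2 4.32 (2.83 without library C). The most abundant marker, Clu, was at 1.21. Other nuclei led by the transitional programme had a sum of 254, about that of the members.

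Type II markers were low in the members. Of 21 tested, 20 were lower, against 8.32% of all genes. The list summed to 51.7 against 606 per 10000, a fold of 0.0854 (0.0832 to 0.0876), and the libraries lay between 0.0421 and 0.0909. Sftpc, the surfactant protein that defines type II cells, was at 26.2 against 436 per 10000, at 32.3, 9.25, 27.9 and 27.6 in members of libraries A to D and 440, 443, 433 and 445 in the others. Slc34a2, the phosphate transporter of type II cells, had a fold of 0.0332. Other nuclei led by the transitional programme had 66.8 Sftpc UMIs per 10000, and the nuclei left out for secretory genes 30.3. How much of the Sftpc in members is free RNA from other cells was not tested. By these markers the members go against the ATII label of the samples, which names the cells that were seeded.

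Type I markers showed no single direction. Of 22 tested, the giant scaffold protein Ahnak was higher (2.01) and 3 were lower, the tight-junction gene Cldn18 (0.379), Sema3a (0.369) and Rtkn2 (0.469, 0.254 without library C). These shares are near the 4.53% and 8.32% of all genes, and weighted by programme 0 were higher and 2 lower. The list summed to 132 against 122 per 10000, a fold of 1.07 (1.06 to 1.09), but libraries A to D were at 0.568, 0.875, 1.21 and 0.766, and the fold was 0.778 without library C. Ager, a receptor typical of type I cells, was at 20.4 against 26.9, a fold of 0.760 with 0.166, 0.309, 0.976 and 0.409 by library and 0.336 without C.

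The hypoxia and glycolysis values were also compared within one programme. Against other nuclei of the same leading programme and library, the 80 transitional members had a glycolysis fold of 2.80 (2.74 to 2.85) and a hypoxia fold of 2.23. The 20 led by type I markers had 4.79 and 2.76. Pgk1 was at 3.86 and 7.06 and Slc2a1 at 3.59 and 6.91 in these groups. With others weighted to the members' programmes, 14 of 15 glycolysis and 19 of 40 hypoxia genes were higher, against 247 of all 10917 genes. Their summed folds were 3.10 and 2.33. Under the same weighting transitional markers were at 1.12, with 7 of 23 higher. Type II markers were at 0.428, with 7 of 21 lower, against 545 of all 10917 genes. Glycolysis in the other nuclei stood at 19.9 (type II), 25.7 (type I) and 38.8 (transitional) UMIs per 10000, all under the 110 of the members.

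**Figure D4:**
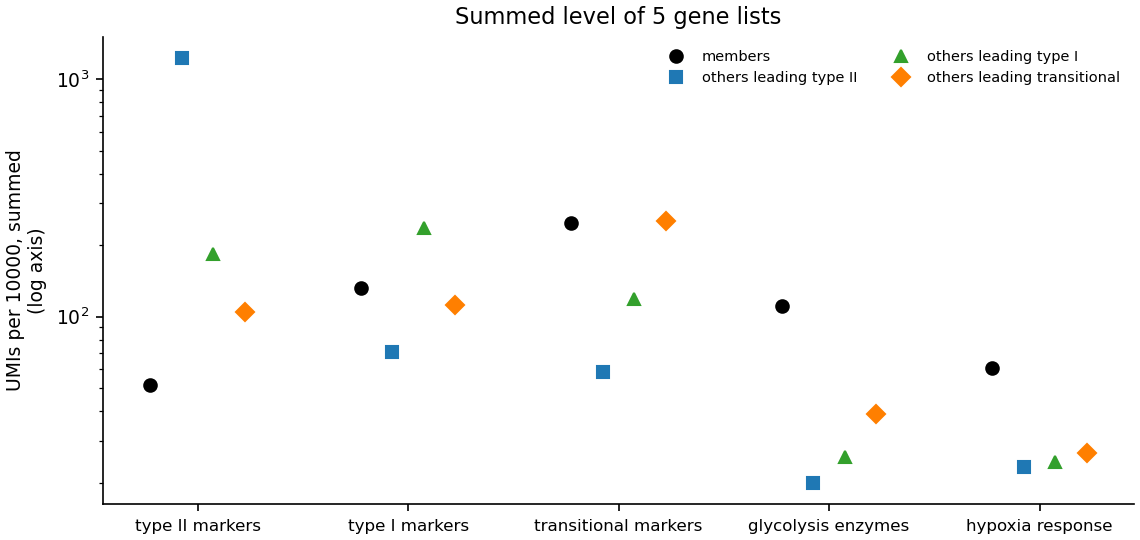
Summed UMIs per 10000 (log axis) of 5 gene lists in the members and in the other nuclei split by leading marker programme, all libraries together. Members stand near the other transitional nuclei in transitional markers (249 and 254) and stand above all 3 groups in glycolysis (110) and hypoxia genes (60.5).

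Markers of cell types from outside the epithelium, and of basal and neuroendocrine cells, were mostly at 0, and those of airway cells were not. Of 16 immune genes, 12 had no UMI, Ptprc, Adgre1 and Marco among them, while the lysosomal gene Cd68 had 51 UMIs (fold 9.29, 2.92 without library C). Of 8 basal genes, Krt5, Krt14, Trp63, Ngfr and Dapl1 had none, and Krt17 had 68 UMIs, all in 4 nuclei of library C. Of 6 mesothelial genes, 5 had none and Msln had 671 UMIs, 623 in C. Its level was 3.97, 1.39, 7.58 and 0.931 per 10000 in members of libraries A to D and 0.392, 0.448, 0.390 and 0.624 in the others, a fold of 13.5 that came to 2.69 without library C. In 10 of 14 mesenchymal, 8 of 12 endothelial and 7 of 8 neuroendocrine genes no UMI was seen. Of 12 airway secretory genes 1 was at 0, and the list summed to 5.76 against 3.71 per 10000. This was a fold of 1.55, with 0.310, 0.179, 2.11 and 0.451 in libraries A to D. The list includes Scgb3a1 and Bpifa1, which the rule capped in members and others, so its sums are in part set by the rule. The club-cell secretoglobin Scgb1a1 had 340 UMIs, 339 of them in C and 72.6% of them in 5 nuclei, a fold of 5.80 and 0.0542 without library C. Of 13 ciliated genes 3 were at 0, and the list summed to 0.564 against 0.871, a fold of 0.647. Summed levels of the immune and mesothelial lists in members were 0.512 and 5.82 per 10000, against 0.101 and 0.435 in the others. The part of these genes' cell types in the results above was not tested. Krt17 is named after its values were seen.

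Counting only tested genes detected in 20% or more of the members, whatever their list, the fold was highest for Crct1. Crct1, which lies in the gene cluster of the skin barrier, had 34.5, but 70.3% of its UMIs came from 5 nuclei, and it was at 86.2 in D and 21.6 in C, 60.8 without C and 19.2 without D. Emp1, a membrane protein of squamous epithelia, was high in every library, at 1.47 against 0.150 per 10000, a fold of 9.84 with 16.8, 20.0, 8.54 and 10.2 in A to D. Itga2, the collagen-binding integrin, had 7.69 with 24.2, 20.5, 6.41 and 3.88. Fgfbp1, which releases growth factors from the matrix, had 9.40 with 1.59, 5.13, 9.08 and 15.8. Tnfrsf23, a decoy receptor, had 7.75. Tmem213 (18.0, 1.15 without C), Phgr1 (14.5, 1.03), Enah (7.66, 0.990), the proton pump subunit Atp6v0a4 (7.45, 1.64) and Pglyrp1 (7.20, 1.47) rested largely on library C. Cacnb2 had 10.9 and fell to 4.72 without C, still past the 2-fold limit. The lowest folds, 0.0113 for Rbpjl to 0.0601 for Sftpc, included the surfactant gene Sftpa1 (0.0418) and the MHC class II genes H2-Aa (0.0210) and H2-Eb1 (0.0398). Without library C, Rbpjl was at 0.124, H2-Aa at 0.115 and H2-Eb1 at 0.148.

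Of other responses, targets of the mechanosensitive coactivator YAP were higher in 5 of 13 tested genes, with none lower (4.53% and 8.32% of all genes), a median log2 fold of 0.94 and a summed fold of 2.72. With others weighted by marker programme, 2 of 13 were higher, against 247 of all 10917 genes, the median was 0.33 and the summed fold 1.83. F3, tissue factor, was abundant, at 12.9 against 1.85 per 10000, with 3.46, 4.47, 8.03 and 5.80 in libraries A to D (6.94 overall). Ccn2 (4.56), Ankrd1 (2.75), Nt5e (2.41) and Crim1 (2.02) were the others. Of 16 p53 and cell cycle arrest genes 0 were past either limit, and Cdkn1a, the p21 inhibitor, was at 0.736. In the integrated stress response 3 of 21 were higher, against 4.53% of all genes, and weighted by programme 2 were. The 3 were the transcription factor Ddit3 (2.80), the cystine transporter Slc7a11 (2.64) and the serine synthesis gene Psat1 (2.20, 3.99 without library C). The immediate early genes Fos (0.393), Ier2 (0.402) and Egr1 (0.421) were lower and Ier3 (2.53) was higher. These were the 4 of 15 immediate early and heat shock genes past a limit, where 8.32% of all genes were lower and 4.53% higher. Weighted by programme, 0 of the 15 were higher or lower, with a summed fold of 0.99.

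Open chromatin gives a second readout that the rule did not use. It was read in the 97 members and 5817 other nuclei with at least 1000 ATAC counts, as peak counts summed over each gene body plus 2 kb of flank per side, with at least 50 counts expected. Such windows were called more or less accessible past 1.25-fold, which held for 355 of 7501 genes (4.73%) and 903 (12.0%), with a median of 0.967. The hypoxia genes had a median of 0.980, with 1 of 31 more accessible and 2 less, and the glycolysis genes 1.00, with 2 of 12 more accessible. Several of their genes with high RNA were near or below 1 here, with Gapdh at 0.812, Slc2a1 at 0.999, Bnip3 at 0.893, Ldha at 0.968 and Bsg at 0.952. Pfkp was an exception, at 109 counts against 63.1 expected, a fold of 1.73 (1.42 to 2.08) with 2.09, 1.59, 1.79 and 1.57 in libraries A to D. Ankrd37 was at 1.39 (1.08 to 1.75) and Lgals3 at 1.51 (1.22 to 1.85). Below the filter and named after their values were seen, Egln3 had 94 counts against 43.6 (2.16, 1.74 to 2.64) and Msln 2.82. Of the rule genes, whose RNA chose the nuclei, only Ndrg1 passed the filter, at 1.45 (1.14 to 1.81). Below it, Serpinb9b had 3.21 (2.26 to 4.42), Mgarp 1.63 (1.05 to 2.40), Slc16a3 1.30 (0.955 to 1.73), Bst1 1.26 (0.881 to 1.74) and Loxl2 0.785 (0.288 to 1.71), the last 3 with intervals that include 1.

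**Figure D5:**
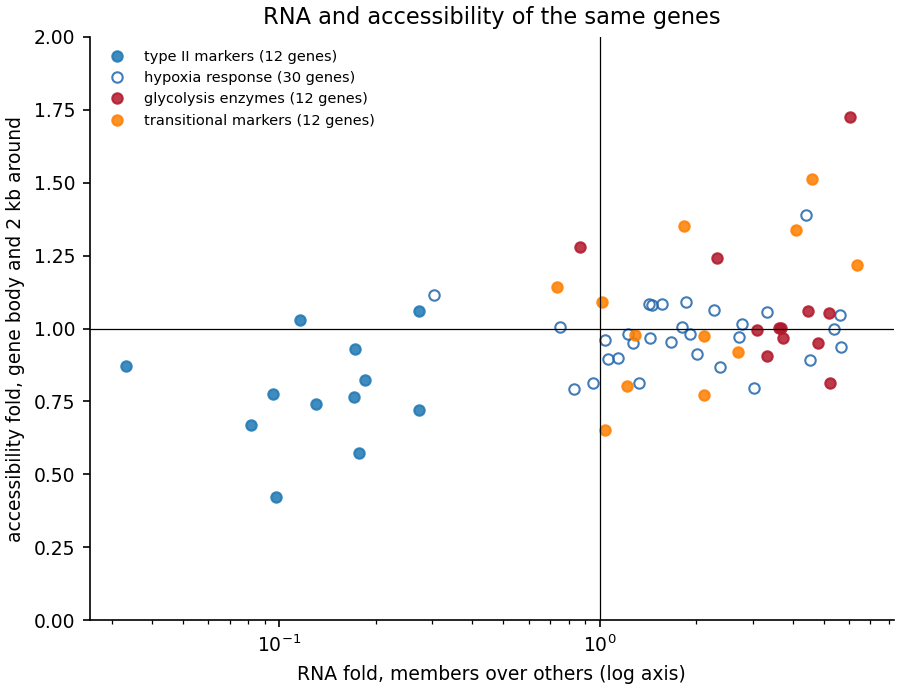
Accessibility fold over the gene and 2 kb around it (vertical axis) against RNA fold (horizontal log axis) for genes of 4 lists tested in both readouts, each point a gene. Most glycolysis genes stand near 1 in accessibility at RNA folds above 2, Pfkp stands highest at 1.73, and 10 of the 12 type II markers are below 1.

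Of all genes with higher RNA, 40 of 235 with a tested window were more accessible, and 63.0% were above 1, against 41.4% of all windows. Over peaks at the promoter, 34 of 226 were more accessible and 32 less, against 563 and 1263 of the 8145 promoters of all genes. The median was 0.998 against 0.967, and 49.6% were above 1, against 42.6% of all promoters. Of those with lower RNA, 131 of 538 were less accessible, and their median was 0.898. Type II marker windows had a median of 0.770, with 7 of 12 less accessible, and transitional windows 1.03. Windows of the respiratory genes had a median of 0.879.

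Among single peaks, 296 of 27620 with at least 10 counts expected (1.07%) were at least 2-fold more open and 2038 (7.38%) less open. These counts depended on the libraries: 24 peaks were more open without library C and 99 without D. Of the 296, 283 were above 1 in both C and D, which also entered the fold that chose them. Within 2 kb of a gene start lay 39 of them, and none was over a rule gene. The same counts over all tested peaks are not given, so these 2 counts cannot be read as many or few. The peak with the highest fold, chr17:26549134-26550080 (positions as the files give them, with GRCm38 and mm10 named as builds in the submitters' processing notes), had 49 counts, a fold of 3.84 (2.84 to 5.07), lies within 1700049J03Rik and is 11905 bp from the start of Ergic1. A peak at chr15:59537807-59538718 within Nsmce2 had 3.34, one at chr2:32867144-32868073 had 3.31 and one near Trim2 at chr3:84319287-84320151 had 3.11. The peak at chr7:110772120-110773051 is 19 bp from the start of Ampd3, an AMP deaminase, and had 3.26, with 2.27 in C and 4.05 in D. Ampd3, named after its values were seen, had 46 RNA UMIs, a fold of 3.15 (2.31 to 4.21). Where the gene nearest to a more open peak was tested for RNA, 26 of 151 (17.2%) were higher and 7 lower, against 4.53% and 8.32% of all genes.

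Across promoters of the length printed above, ACGTG was found in 23.1% of 20267 genes, in 30.5% of tested genes, in 36.9% of higher genes and in 23.2% of lower genes. It was found in 26 of 39 hypoxia genes with a RefSeq promoter (66.7%), in 13 of the 15 of these that were higher (86.7%) and in 10 of 16 glycolysis genes (62.5%). GCGTG was found in 39.8% of all genes, 57.8% of tested genes, 11 of the 15 (73.3%) and 9 of the 16 (56.2%). The hypoxia list is made of known HIF targets, so a high share is part of how it was drawn up. Of the rule genes, 3 had a promoter entry, and Slc16a3 and Mgarp held ACGTG while Serpinb9b did not.

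Sox9 RNA was low by the rule, which left out nuclei with 5 or more of its UMIs. The members held 56 Sox9 UMIs in 32 nuclei, 0.486 against an expected 0.342 per 10000, a fold of 1.42 (1.07 to 1.85). Library C held 45 of these UMIs, D 9, B 2 and A 0. Sox6, a related transcription factor named after its values were seen, had 124 UMIs, 116 in C, a fold of 5.89 (4.90 to 7.02). Over the Sox9 gene, the peak with the highest fold, chr11:112784666-112785551, had 80 ATAC counts, a fold of 3.08 (2.44 to 3.83). Of these, 73 were in C (3.62) and 6 in D (1.06). The peaks at chr11:112783490-112784356 and chr11:112782331-112783169 had 2.54 (1.78 to 3.52) and 1.68 (1.19 to 2.30). In C they were at 3.14 and 2.19, in D at 0.874 and 0.363, with no counts in A and B. The Sox9Cre virus carries Sox9 as well, and its part in these RNA and ATAC counts was not tested.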

How the data were processed

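RNA and open chromatin of the same nuclei were measured with a droplet multiome kit, in 4 RNA samples and their ATAC partners, 8 in all. Raw counts were deposited as pooled matrices for 7224 nuclei, with UMIs for 32285 genes and ATAC counts for 116068 peaks. The submitters' processing notes name Signac 1.10.0, Seurat 4.3.0, Cell Ranger 6.0.1 and the builds mm10 and GRCm38, without roles. The handling of overlapping or near-identical genes is not known from the labels. The members and the gene lists were chosen with earlier results of these data known.

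Expected counts were the other eligible nuclei's rate times the members' total, summed over libraries. Exact Poisson 95% intervals cover counting error only, and UMIs of a nucleus are not replicates of a culture. With 0 UMIs, a floor of 3 counts bounded the fold. Genes were named by rule: the 15 highest and 10 lowest folds detected in 20% or more of the nuclei and with 1 direction in libraries with 10 or more members, up to 6 genes per list past 2-fold and its most abundant one, and the 5 peaks with the highest fold. Exceptions are named as such, and 1 gene counted in the hypoxia list is not reported here by itself. Neighbours used 2000 variable genes and 30 principal components. The counting step was tested on simulated data. Windows need gene positions, which 26296 genes (81.4%) had in the RefSeq table. Python 3.11.15, numpy 2.4.6, scipy 1.17.1, pandas 2.3.3, scikit-learn 1.9.0, scanpy 1.11.5 with Scrublet and matplotlib 3.10.9 were used. The files of multiplexing oligos and the contrast of Sox9Cre with Cre were not analysed here.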

Additional observations from a re-analysis of the deposited data

How the results depend on the processing

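No paired analysis was possible because the barcode prefixes carry no replicate numbers and the results come from no test. Of 153 values of the main results under the alternatives, 106 stayed within counting error or 1.5 times, 45 moved and 2 reversed. The glycolysis count (12 to 14 genes) never moved past 1.5 times. The cause was not tested for any change.

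The summed type II fold (0.0854) was 0.0937 for the top 1%, 0.0930 for the top 3%, 0.163 with nuclei thinned to 3000 UMIs, 0.0798 without Slc16a3 in the rule, 0.428 weighted by programme, 0.0898 without library B, 0.0715 without C and 0.0815 in members with 2 or more rule genes, an alternative added after seeing the data. The type I fold (1.07) reversed to 0.981 weighted by programme and 0.778 without library C. It was 1.00 for the top 3%, 1.06 at 3000 UMIs or more, 1.11 thinned, 1.03, 1.00, 1.02 and 1.22 without Loxl2, Serpinb9b, Slc16a3 and Ndrg1, 1.10 without A, 1.10 without B and 1.13 without D. The transitional fold (1.89) was 1.79 for the top 1%, 1.98 for the top 3%, 1.85, 1.91, 1.96, 1.96 and 1.79 without Mgarp, Bst1, Serpinb9b, Slc16a3 and Ndrg1, 1.12 weighted by programme, 1.87 without the highest doublet scores, 1.83 without library B, 2.28 without C, 1.82 without D and 1.96 with 2 or more rule genes.

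Higher genes numbered 495, 247 weighted by programme and 805 with 2 UMIs expected, and lower genes 908, 545 weighted by programme. Hypoxia genes higher fell from 20 to 10 without library C. More open peaks (296) numbered 64 for the top 1%, 1741 for the top 3%, 460 thinned, 40 weighted by programme, 24 without library C, 99 without D, 10 with 20 counts expected, 88 counted as 0 or 1, and 83 with 2 or more rule genes. Among 30 neighbours 17.4% were members. Of 2245 values of 125 named genes, 487 moved and 9 reversed: Dnah5 (0.256) to 4.48 for the top 3%, Ereg (2.55) to 0.789 without Serpinb9b and 0.874 without library C, Epas1 to 1.16 weighted by programme, and without library C Enah to 0.990, Scgb1a1 to 0.0542, Aldoc to 0.660, Tgfb2 (3.11) to 0.663 and Ifit3 (2.27) to 0.463. Libraries A and B hold 7 and 9 members, which limits what their values show.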

Other observations

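Genes of lipid synthesis and antigen presentation stood below the other nuclei in part. Of 24 tested lipid and cholesterol genes 7 were lower and 2 higher, against 8.32% and 4.53% of all genes. Their median log2 fold was -0.45 and the summed fold was 0.370. The desaturase Scd1 was at 0.156, the fatty acid elongase Elovl1 at 0.171, the fatty acid synthase Fasn at 0.172 and the carboxylase Acaca at 0.289. Weighted by programme, 0 of the 24 were lower and 1 higher, with a median of 0.05 and a summed fold of 0.874, and Scd1 was at 0.590 and Fasn at 0.556. Of 7 tested MHC class II genes 6 were lower, and the invariant chain Cd74 was at 0.902 against 9.27 per 10000, a fold of 0.0973, with 0.237, 0.127, 0.0544 and 0.255 in libraries A to D and 0.209 without C. Weighted by programme, 4 of the 7 were lower, against 545 of all 10917 genes.

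Genes of BMP and TGF-beta signalling went both ways. Of 12 tested, 5 were lower, against 8.32% of all genes, the BMP-induced inhibitors Id1 (0.321), Id2 (0.431) and Id3 (0.463) among them, and Tgfb2 was higher (3.11, 0.663 without library C). Weighted by programme, 2 of the 12 were lower, against 545 of all 10917 genes, and the summed fold was 0.98. The receptor Egfr was at 2.85, with 4.13, 7.57, 2.54 and 0.874 by library. Of 10 interferon genes 4 were higher, against 4.53% of all genes, Isg15 (2.59), Oasl2 (2.35), Ifit2 (2.34) and Ifit3 (2.27), and without library C Ifit2 was at 1.24 and Ifit3 at 0.463. Weighted by programme, 0 of the 10 were higher, with a summed fold of 1.12. Without library C, Id3 was at 0.862.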
